A study of Arabidopsis thaliana with 3 samples.

Results

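Photorespiration enzyme genes of Arabidopsis thaliana were described here by the N6-methyladenosine (m6A) of their transcripts. The 9 genes were PGLP1, GOX1, GOX2, GGT1, AGT1, GLDP1, SHM1, HPR1 and GLYK, and a site belonged to them when the deposited table gave exactly that gene's locus name. They held 127 of the 120269 listed m6A sites, and all 9 were among the 15180 nuclear genes that had a site under a single gene name. The RNA came from seedlings of the Col-0 accession that had been grown for 7 days on plates under long days (16 h light in 24 h, 22 °C), in 3 biological replicates of 1 group with no treatment. Polyadenylated RNA was analysed by CAM-seq, in which unmodified adenosine is converted and read as G and m6A is still read as A. The m6A level is the percentage of reads at an adenosine that still read A. Each site had 1 depth and 1 unconverted count for the 3 replicates together, so the values have no replicate error and the 95% Wilson intervals given with them cover counting error only.

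Photorespiration is the pathway by which plants recover carbon after Rubisco has added oxygen in place of carbon dioxide to its substrate. The phosphoglycolate formed in the chloroplast is dephosphorylated there, oxidised and aminated to glycine in the peroxisome, converted to serine in the mitochondrion, and returned through the peroxisome to the chloroplast as glycerate. The enzymes are abundant in green tissue and their transcripts are among the more abundant of leaves. m6A is the commonest internal modification of messenger RNA, and in plants it lies mainly in the 3' untranslated region (3' UTR) near the stop codon.

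The listed site with the highest level in each gene is printed below, since the comparisons between the genes rest on these sites. Each sequence is the RNA-sense strand, 5′ to 3′, of 21 bases taken from the context in the deposited table with TAIR10 coordinates, and the capitals mark the site (the middle A) with its neighbouring bases.
PGLP1, chr5:14421621-14421641, minus strand: acataaaaAGACCttgcataa
GOX1, chr3:4824001-4824021, plus strand: atatctcaAGACTtgtttctc
GOX2, chr3:4820907-4820927, plus strand: ctatttggCTACAttttacct
GGT1, chr1:8268646-8268666, minus strand: tctctgtaGTACActctttct
AGT1, chr2:5539360-5539380, minus strand: atgtaaacAAACTctcatgtt
GLDP1, chr4:15926756-15926776, minus strand: ttctcattATACGctttctgt
SHM1, chr4:17831809-17831829, minus strand: tacatgtaAAACTctattttc
HPR1, chr1:25495725-25495745, plus strand: agtatgaaGAAGGggagattt
GLYK, chr1:30219859-30219879, plus strand: cttctattTGACAttcttttt
In 5 of these 9 sequences the site lay in a RAC motif (R is A or G), the class that includes the usual m6A motif. GOX2, GGT1 and GLDP1 had UAC, a member of the YAC class (Y is C or U), and HPR1 had AAG.

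The 9 genes carried many sites of low level. Depth at their 127 sites had a median of 1083 reads and ran from 22 to 15105, against a median of 107 over all listed sites. The level had a median of 6.34% and a mean of 14.8%, against a median of 21.8% and a mean of 31.9% over all listed sites. Levels above 50% were found at 8 of the 127 sites (6.30%), against 24.2% of all listed sites, and levels under 5% at 58 (45.7%), against 8.06%. A site was listed only when its unconverted reads exceeded a background of 1% with p under 0.001 at a depth of at least 20, so the lowest level that could be listed was 6% at 100 reads, 2.2% at 1000 reads and 1.33% at 10000 reads. Sites read more often could thus be listed at lower levels, and the share of levels under 5% was not compared at equal depth. Among sites read at least 1000 times, the median was 8.89% over 66 sites of the 9 genes, against 9.12% over 8181 listed sites, and 2 of the 66 were above 50%, against 1191 of the 8181.

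**Figure D1:**
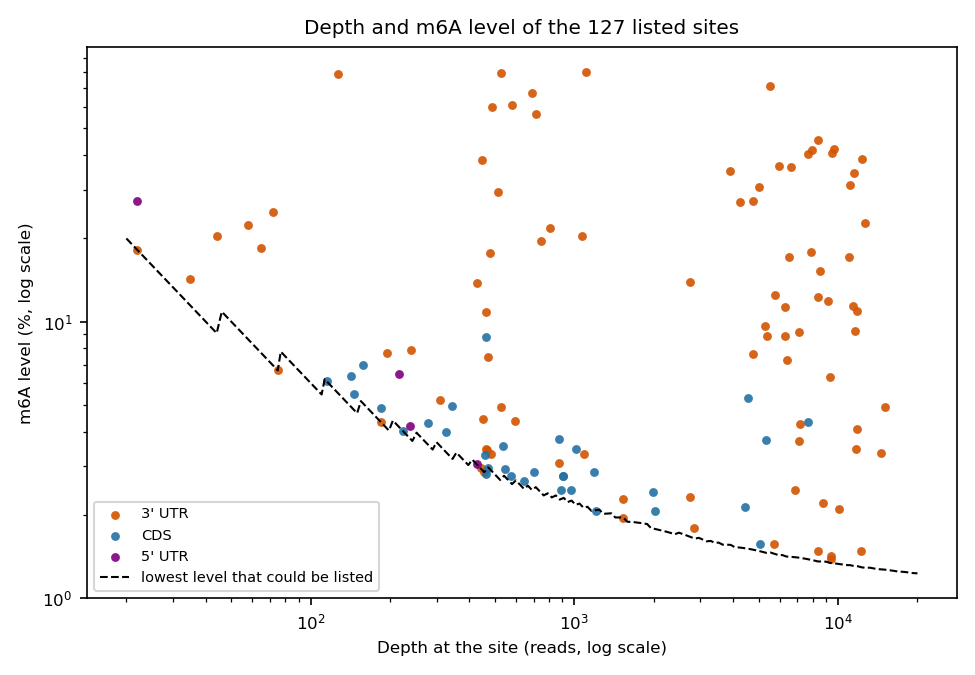
Depth in reads (x axis, log scale) and m6A level in percent (y axis, log scale) of the 127 listed sites, with the points coloured by transcript region and the dashed line marking the lowest level that could be listed at each depth. Most coding-sequence sites lie close to the line and none exceeds 8.84%, whereas 3' UTR sites reach 80.0%.

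The highest level of a gene passed 50% in 3 of the 9 genes, GLYK, PGLP1 and SHM1, against 67.0% of all genes with a listed site. Of the 8 photorespiration genes with a site read at least 1000 times, the same 3 genes passed 50%, against 66.6% of all genes with such a site. In order of the highest level the genes were GLYK, PGLP1, SHM1, GGT1, GOX2, AGT1, GLDP1, GOX1 and HPR1. Neighbours in this order were compared by a two-sided Fisher's exact test on the pooled reads, adjusted by Benjamini-Hochberg over the 8 pairs. GLYK was 1.22 points above PGLP1 (95% interval -5.46 to 9.44, adjusted exact p = 0.727), and PGLP1 was 7.42 points above SHM1 (-0.57 to 13.8, adjusted exact p = 0.0838), so these neighbours did not differ beyond counting error at the 127 reads of PGLP1. The other 6 neighbours differed, the least by 2.85 points (GOX2 above AGT1, 1.46 to 4.23, adjusted exact p = 7.21e-05) and the most by 26.1 points (SHM1 above GGT1, 24.5 to 27.7, adjusted exact p = 1.96e-204). These tests compare the pooled libraries, and the spread between plants does not enter them. The sites were picked and ordered by the same levels that were tested, and the p-values do not allow for this choice.

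**Figure D2:**
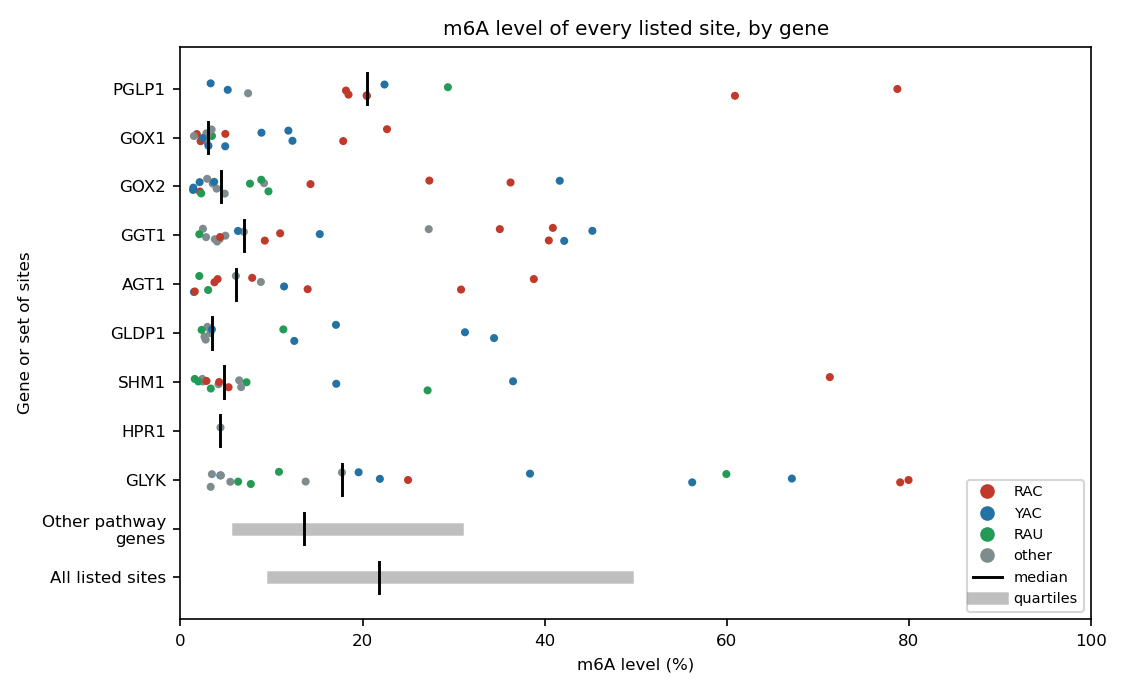
m6A level in percent (x axis) of every listed site of the 9 genes in pathway order (rows, points coloured by motif class, black bars for medians), above the medians and quartiles of the other pathway genes and of all listed sites. PGLP1 and GLYK have medians of 20.5% and 17.7%, and the other 7 genes have medians under 7%. Sites without a gene name are not shown. HPR1 rests on 1 named site, and its 10 unnamed sites had a median of 15.2%.

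PGLP1 (AT5G36700, chr5:14421182-14424610, minus strand) encodes the chloroplast phosphatase that removes the phosphate from phosphoglycolate, the first step of the pathway. Its 11 listed sites all lay in the 3' UTR and averaged 25.9% ± 23.4 (SD over sites), with depths of 22 to 1065 reads. The highest was a GAC at position 14421631, with 78.7% of 127 reads (70.8% to 85.0%). It lay 184 nt after the stop codon on the transcript with the longest coding sequence, which lacks the unnamed sites given below. The deepest was an AAC at 14421896 with 20.5% of 1065 reads (18.2% to 23.0%). A near-identical copy, AT5G36790, lies nearby on the same chromosome, and 10 of the 11 sites had a counterpart in it with an identical 31-base context. None of these 10 pairs passed the test for a difference between PGLP1 and the copy (two-sided Fisher's exact test, adjusted exact p from 0.790 to 0.833), with 78.7% in PGLP1 against 84.9% of 119 reads in the copy at the highest site, a difference of -6.13 points (-15.7 to 3.62). Reads of such contexts cannot be assigned to either gene with certainty, so this test cannot show whether the levels of the 2 genes are alike. A further 10 sites inside PGLP1 had no gene name in the table, and the highest of these, an AAC at 14421815, had 86.9% of 663 reads (84.1% to 89.2%). It was in an exon in 2 of the 4 RefSeq transcripts of PGLP1 and also had an identical context elsewhere.
PGLP1 unnamed site, chr5:14421805-14421825, minus strand: aataataaGAACTttcttgct

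GOX1 (AT3G14420, chr3:4821391-4824178, plus strand) and GOX2 (AT3G14415, chr3:4818251-4821013, plus strand) are adjacent genes for glycolate oxidase, the peroxisomal enzyme that oxidises glycolate to glyoxylate. GOX1 had 19 sites with a mean of 6.08% ± 5.97 (SD over sites), and 14 of them were under 5%. Its highest was a GAC at 4824011, 112 nt after the stop codon, with 22.7% of 12632 reads (22.0% to 23.4%). Its deepest, a UAC at 4823991 with 15105 reads, was also the deepest site of all 9 genes and had 4.92% (4.59% to 5.28%). GOX2 had 18 sites with a mean of 10.2% ± 12.2, of which 10 were under 5%. Its highest was a UAC at 4820917, 169 nt after the stop codon, with 41.7% of 7967 reads (40.6% to 42.7%). Its deepest, a UAC at 4820826 with 10047 reads, had 2.11% (1.85% to 2.41%).

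In the 3' UTRs of GOX1 and GOX2, 187 of 245 aligned bases (76.3%) were identical, against 1020 of 1104 (92.4%) in the coding sequence. Of the adenosines that align between the spliced transcripts, 5 were listed in both genes, and 4 of these pairs differed by a two-sided Fisher's exact test adjusted over the 5 pairs. GOX1 was lower at 3 of them and higher at 1. The 3 include a weakly aligned pair, in which a UAC of GOX1 faced a GAU of GOX2. The sequences of the 3 well-aligned 3' UTR pairs are printed so that the bases around each site can be compared.
GOX1 +92 nt, chr3:4823981-4824001: cttggcttCTACTctgctaaa
GOX2 +78 nt, chr3:4820816-4820836: ctttgcttCTACTctgctata
GOX1 +112 nt, chr3:4824001-4824021: atatctcaAGACTtgtttctc
GOX2 +104 nt, chr3:4820842-4820862: atctcgaaAAACTtgtttctc
GOX1 +174 nt, chr3:4824063-4824083: ctatttggCTACTtctttctt
GOX2 +169 nt, chr3:4820907-4820927: ctatttggCTACAttttacct
At the first pair, with 19 of 21 bases shared, GOX1 had 4.92% of 15105 reads and GOX2 2.11% of 10047 reads, a difference of 2.81 points (2.36 to 3.25, adjusted exact p = 3.59e-32). At the second pair, with 17 of 21 bases shared, GOX1 had 22.7% of 12632 reads and GOX2 36.3% of 6606 reads, a difference of -13.6 points (-14.9 to -12.2, adjusted exact p = 6.42e-87). At the third pair, also with 17 of 21 bases shared, GOX1 had 11.9% of 9135 reads and GOX2 41.7% of 7967 reads, a difference of -29.8 points (-31.1 to -28.5), the largest of the 5. The remaining 3' UTR pair shared only 11 of 21 bases, so that its alignment is weak, and had 2.46% in GOX1 and 8.87% in GOX2, a difference of -6.42 points (-7.28 to -5.59, adjusted exact p = 2.96e-56). The coding-sequence pair shared 21 of 21 bases, with bases given as n counted as shared. It had 2.86% of 700 reads in GOX1 and 3.98% of 327 reads in GOX2, a difference of -1.12 points that did not pass the test (-4.00 to 1.11, adjusted exact p = 0.347). Whether its reads could be assigned to either gene with certainty was not tested. Of the other 14 sites of GOX1, 12 faced an adenosine of GOX2 that was not listed, and 9 of the other 13 sites of GOX2 faced an unlisted adenosine of GOX1. How deeply such unlisted adenosines were read was not analysed here.

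**Figure D3:**
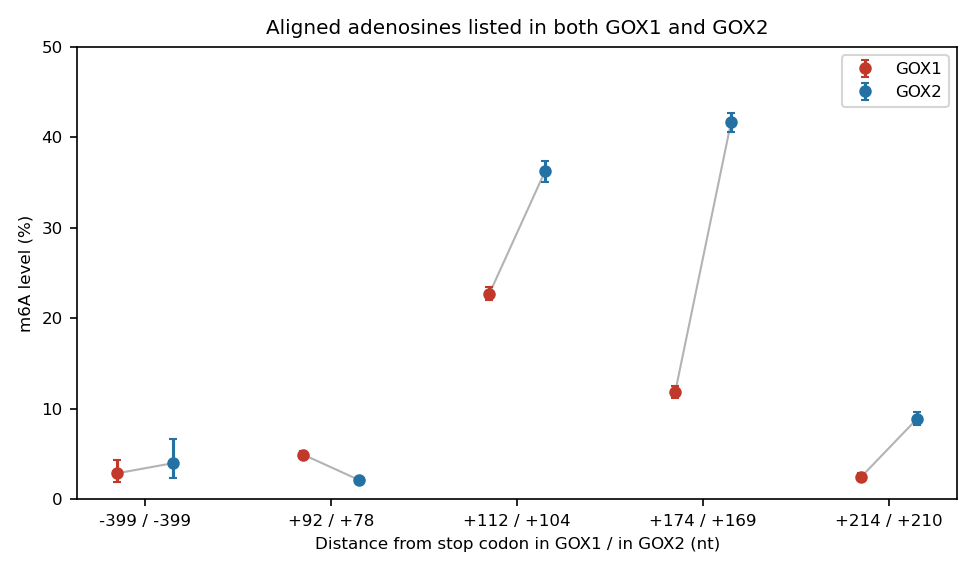
m6A level in percent (y axis) of the 5 adenosines that align between GOX1 (red, left of each pair) and GOX2 (blue, right) and were listed in both, placed by their distance from the stop codon in each gene (x axis), with 95% Wilson intervals as bars. The pair at +174 and +169 nt is the farthest apart, with 11.9% in GOX1 and 41.7% in GOX2.

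GGT1 (AT1G23310, chr1:8268385-8272021, minus strand) encodes the glutamate:glyoxylate aminotransferase that makes glycine in the peroxisome. It had 19 sites with a mean of 16.2% ± 16.2 (SD over sites), of which 6 were above 20%. The highest was a UAC at 8268656, 64 nt after the stop codon, with 45.2% of 8381 reads (44.2% to 46.3%). The deepest was an AAC at 8268703, 17 nt after the stop codon, with 11.0% of 11822 reads (10.4% to 11.5%). All 5 RAC adenosines between 20 nt before and 180 nt after its stop codon were listed, and so were 4 of the 5 YAC adenosines. The single 5' UTR site above 20% of the 9 genes also lay in GGT1 and rested on 22 reads (27.3%, 13.2% to 48.2%).

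AGT1 (AT2G13360, chr2:5538740-5541479, minus strand) encodes the serine:glyoxylate aminotransferase, which uses the serine returned from the mitochondrion as the other amino donor for glycine. Its 13 sites had a mean of 10.3% ± 11.7 (SD over sites). The AAC at 5539370, 47 nt after the stop codon, was both the highest and the deepest, with 38.8% of 12305 reads (38.0% to 39.7%). RAC motifs held 7 of the 13 sites, and these ran from 1.57% to 38.8%.

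GLDP1 (AT4G33010, chr4:15926652-15931422, minus strand) encodes the P protein of glycine decarboxylase, the mitochondrial complex that releases carbon dioxide and ammonia from glycine. Its 11 sites had a mean of 11.3% ± 11.8 (SD over sites). The highest was a UAC at 15926766, 86 nt after the stop codon, with 34.4% of 11514 reads (33.6% to 35.3%), and the deepest was a CAC at 15926793 with 3.46% of 11677 reads (3.14% to 3.81%). No site of GLDP1 was in a RAC motif. The stop-codon window of its transcript held 4 RAC adenosines, none of them listed, and 10 YAC adenosines, of which 5 were listed.

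SHM1 (AT4G37930, chr4:17831731-17835017, minus strand) encodes the mitochondrial serine hydroxymethyltransferase, which joins the one-carbon unit released from glycine to another glycine to give serine. Its 16 sites had a mean of 12.6% ± 18.6 (SD over sites) and a median of 4.77%. The AAC at 17831819, 72 nt after the stop codon, had 71.3% of 5502 reads (70.1% to 72.5%). The next highest site of SHM1 had 36.5%. The deepest was an AAU at 17831852 with 3.34% of 14494 reads (3.06% to 3.64%), 33 nt upstream of the highest site in the same 3' UTR.

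HPR1 (AT1G68010, chr1:25493193-25496053, plus strand) encodes the peroxisomal hydroxypyruvate reductase that forms glycerate. It had 1 listed site under its name, an AAG at 25495735, 15 nt after the stop codon, with 4.35% of 184 reads (2.22% to 8.34%). A further 10 sites on the same strand inside HPR1 had no gene name in the table. These were deeper, from 323 to 3037 reads, and ran from 2.14% to 45.7%, the highest being a GAC at 25495870 with 45.7% of 1651 reads (43.3% to 48.1%).
HPR1 unnamed site, chr1:25495860-25495880, plus strand: agtctattAGACGattaccca
All 10 lay in an exon in 1 of the 3 RefSeq transcripts of HPR1, the one with a 3' UTR of 333 nt, and beyond the end of the transcript with the longest coding sequence, whose 3' UTR is 63 nt. The 45.7% at this unnamed site would place HPR1 beside GGT1 in the order of highest levels, with HPR1 0.48 points above GGT1 (-2.13 to 3.12, adjusted exact p = 0.725). In the same order, with the unnamed site of PGLP1 included, PGLP1 was 6.91 points above GLYK (3.33 to 10.3, adjusted exact p = 2.46e-04).

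GLYK (AT1G80380, chr1:30217116-30220595, plus strand) encodes the chloroplast glycerate kinase, which returns phosphoglycerate to the Calvin cycle. It had 19 sites with a mean of 27.6% ± 27.1 (SD over sites), above the 25.9% of PGLP1 over all sites but below it at depths of at least 100 reads (27.8% in GLYK, 29.3% in PGLP1), and 5 of the 8 sites above 50%. A GAC at 30219869, 85 nt after the stop codon, was both the highest and the deepest, with 80.0% of 1103 reads (77.5% to 82.2%). The other 4 above 50%, named here after their values were seen, were an AAC at 30219842 (79.0%), UAC sites at 30219890 (67.2%) and 30219847 (56.2%), and an AAU at 30219921 (60.0%). The 30 nt with the highest summed level hold 4 listed sites, marked in capitals.
GLYK, chr1:30219842-30219871, plus strand: AcattAcgttcttcttccttctatttgAcA
From left to right the first 3 capitals are the sites at 79.0%, 56.2% and 80.0%, and the last, 2 nt after the 80.0% site, had 3.32% of 1083 reads (2.41% to 4.57%). The authors removed reads with more than 3 unconverted adenosines, or with too large a share of their adenosines unconverted, a filter that can lower levels where strong sites are close together, and its effect on GLYK was not tested.

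**Figure D4:**
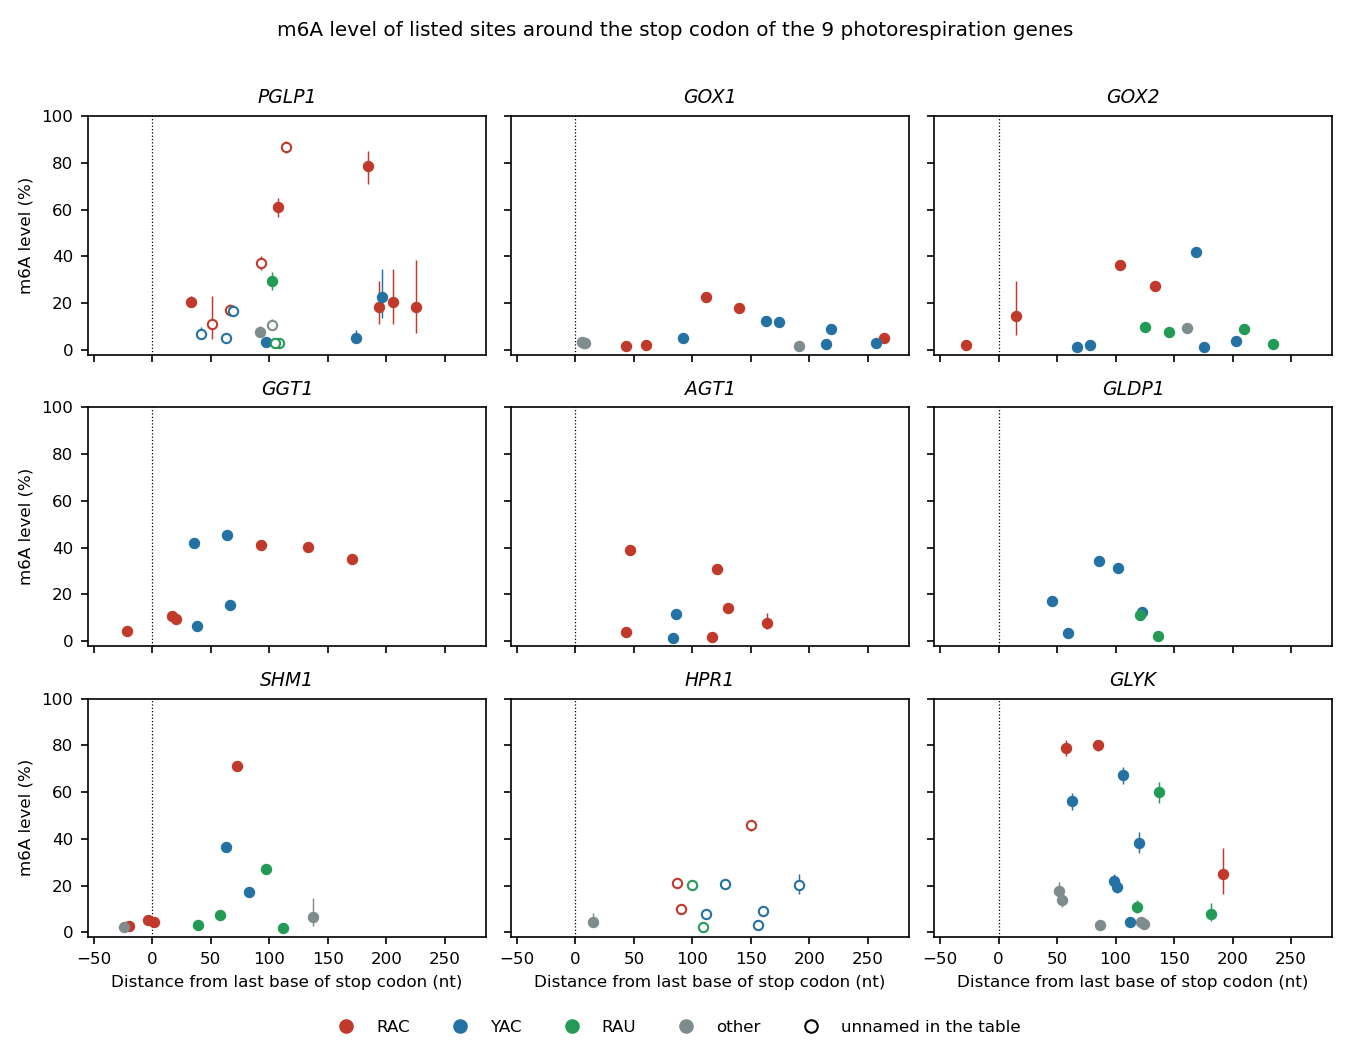
m6A level in percent (y axis) against distance from the last base of the stop codon in nt (x axis, dotted line at 0) in the 9 genes, with 95% Wilson intervals as vertical bars, colours for motif classes and open circles for sites without a gene name in the table. Most high sites lie within 200 nt after the stop codon. The 32 sites outside the plotted range of -50 to 280 nt have levels of at most 27.3%. Named sites are placed on the transcript with the longest coding sequence, and unnamed sites on other transcripts that contain them. In PGLP1 the distances of named and unnamed sites therefore do not give their order along the gene. Its unnamed site at +114 nt (14421815) lies upstream of its named site at +107 nt (14421708).

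The 3' UTR held 90 of the 127 sites (70.9%), against 92.4% of all sites placed on a transcript, the coding sequence 33 and the 5' UTR 4. The window from 20 nt before to 180 nt after the stop codon held 77 (60.6%), against 72.0%. Sites in the coding sequence were weak, with levels of 1.58% to 8.84%, and 23 of these 33 (69.7%) were in neither RAC, YAC nor RAU motifs, against 18.4% of all coding-sequence sites. Their median was 3.28%, a level that could be listed at 500 reads but not at 100 reads, and the 18.4% was not matched for depth. Of the sites of any region in 4 deeply read marker genes, such other motifs held 17 of 30 in RCA and 13 of 19 in RBCS1A. They held 9 of 12 in LHCB1.3 and 6 of 8 in PYK10. In the 5 other pathway genes with the deepest sites, they held 7 of 12 in GDCT and 6 of 17 in GLN2. The share was 3 of 12 in GDCH1, 1 of 12 in GDCH3 and 2 of 14 in PMDH2. Among all sites read at least 1000 times they held 1396 of 8181, and 4 of 66 in the 9 genes. These shares cover all regions and not the coding sequence alone. In the 3' UTR the median level of the 9 genes was 20.5% in RAC motifs, 12.3% in YAC, 8.30% in RAU and 4.35% in other motifs, against 45.6%, 20.6%, 17.4% and 9.12% over all 3' UTR sites. Among sites of any region read at least 1000 times, the medians of the 9 genes were 14.0% in 25 RAC sites, 11.9% in 23 YAC sites, 3.40% in 14 RAU sites and 2.87% in 4 other sites, against 29.4%, 10.7%, 7.19% and 3.07% over all such sites, so that YAC was not lower at this depth. RAC motifs held 35 of the 127 sites (27.6%), against 39.3% of all listed sites, YAC 33, RAU 20 and other motifs 39. A level above the median of its own 3-letter motif over the whole table was found at 28 of the 127 sites.

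Within the stop-codon windows of the 9 genes, 26 of 45 RAC adenosines (57.8%) and 28 of 51 YAC adenosines (54.9%) were listed, as were 11 of 52 RAU adenosines (21.2%) and 12 of 330 others (3.64%). In the same windows of the 1491 genes with a site read at least 1000 times, the shares were 67.4% for RAC, 46.9% for YAC, 29.5% for RAU and 3.64% for other adenosines. Sites with the same surrounding letters had different levels. AAACU was the commonest 5-letter context, with 9 sites in 5 genes, and it ran from 2.22% in GOX1 to 71.3% in SHM1, with a median of 35.1% against 51.6% over 5869 listed AAACU sites. The 4 CUACA sites, in 4 genes, had a median of 31.8% against 21.4% over 721 listed sites. GAAUA ran from 2.28% in GOX2 to 60.0% in GLYK over 3 sites. Another listed site of the same gene lay within 3 nt of 47 of the 127 sites (37.0%), against 22.4% of the sites of genes with a site read at least 1000 times. Within 10 nt the shares were near each other, with 83 sites (65.4%) against 64.2%. Within 30 nt it was 109 (85.8%), against 89.8%, so neighbouring values often come from the same reads.

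The 9 genes were set beside 27 other genes of the pathway and its transporters, isozymes and nitrogen refixation, of which 26 had listed sites and HPR3, a further hydroxypyruvate reductase, had none. The 9 genes had a median of 6.34% over 127 sites, against 13.5% over 316 sites of the other pathway genes. A site above 50% was found in 3 of the 9 genes, against 17 of the 26. The 5 other genes with the deepest sites were GDCT (T protein of glycine decarboxylase, deepest site 23052 reads, highest level 30.4%), GLN2 (chloroplast glutamine synthetase, 18208 reads, 49.7%), GDCH1 (H protein, 12229 reads, 39.7%), GDCH3 (H protein, 10735 reads, 42.2%) and PMDH2 (peroxisomal malate dehydrogenase, 8779 reads, 37.5%). None of these passed 50%. Across all 35 genes with sites, the depth of the deepest site and the mean level had a Spearman rho of -0.665, and the depth and the highest level -0.409. Across the 9 genes alone both were -0.133. Only named sites entered these values, so HPR1 entered with its 1 site of 184 reads and 4.35%. The unnamed sites of HPR1 reached 3037 reads and 45.7%, and rho was not computed with unnamed sites. The rho values are descriptions across genes of the same pooled libraries, in which depth also sets the lowest level that can be listed.

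For 7 pairs of a photorespiration gene and an isozyme or copy, with GOX3 in 2 of them, the highest sites were compared, a comparison chosen after the data were seen. In 6 of the 7 pairs the photorespiration gene had the lower highest level (two-sided Fisher's exact test, adjusted over 7 pairs). The 2 sites of a pair were not aligned, and in each of these 6 pairs they lay in different 3-letter motifs. The highest site was an AAC in GGT2, GLDP2, GOX3 and HPR2, and a GAU in SHM2. Over all listed sites the medians were 40.5% at AAC, 40% at GAC, 21.8% at UAC, 17.1% at GAU and 10% at AAG. The part of motif in the differences was not tested, and the p-values do not allow for choosing highest sites. A higher highest level was also common in the table as a whole: 84.9% of all genes with a listed site exceeded GOX1 in it, 72.5% GOX2, 70.3% GGT1, 77.0% GLDP1, 49.0% SHM1 and 99.2% HPR1. GGT1 had 45.2% and GGT2 90.2% of 256 reads, a difference of -45.0 points (-48.2 to -40.6, adjusted exact p = 4.10e-50). SHM1 had 71.3% and SHM2 92.6% of 81 reads, a difference of -21.3 points (-25.4 to -13.4, adjusted exact p = 5.40e-06). GLDP1 had 34.4% and GLDP2 76.4% of 657 reads, a difference of -42.0 points (-45.2 to -38.5, adjusted exact p = 3.85e-100). GOX1 had 22.7% and GOX3 70.8% of 89 reads, a difference of -48.1 points (-56.6 to -37.9, adjusted exact p = 2.01e-21). GOX2 had 41.7%, a difference of -29.1 points from the same site of GOX3 (-37.6 to -18.9, adjusted exact p = 7.33e-08). HPR1 had 4.35% at its named site and HPR2 62.5% of 331 reads, a difference of -58.2 points (-63.7 to -51.5, adjusted exact p = 1.94e-43), which shrank to -16.8 points (-22.4 to -11.0) with the unnamed site of HPR1 in its place. PGLP1 and AT5G36790 made the pair that did not pass the test. Reads of their highest sites cannot be assigned to either gene with certainty, so that pair cannot show likeness or difference. Depth moved with these differences: in GOX1, GOX2, GGT1, GLDP1 and SHM1 the deepest sites had 10047 to 15105 reads, against 119 to 2371 in their isozymes. At the named site of HPR1 it ran the other way, with 184 reads against up to 738 in HPR2. With the unnamed sites of HPR1, which had up to 3037 reads, HPR1 was the deeper gene of this pair as well. The part of depth in the differences was not tested.

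**Figure D5:**
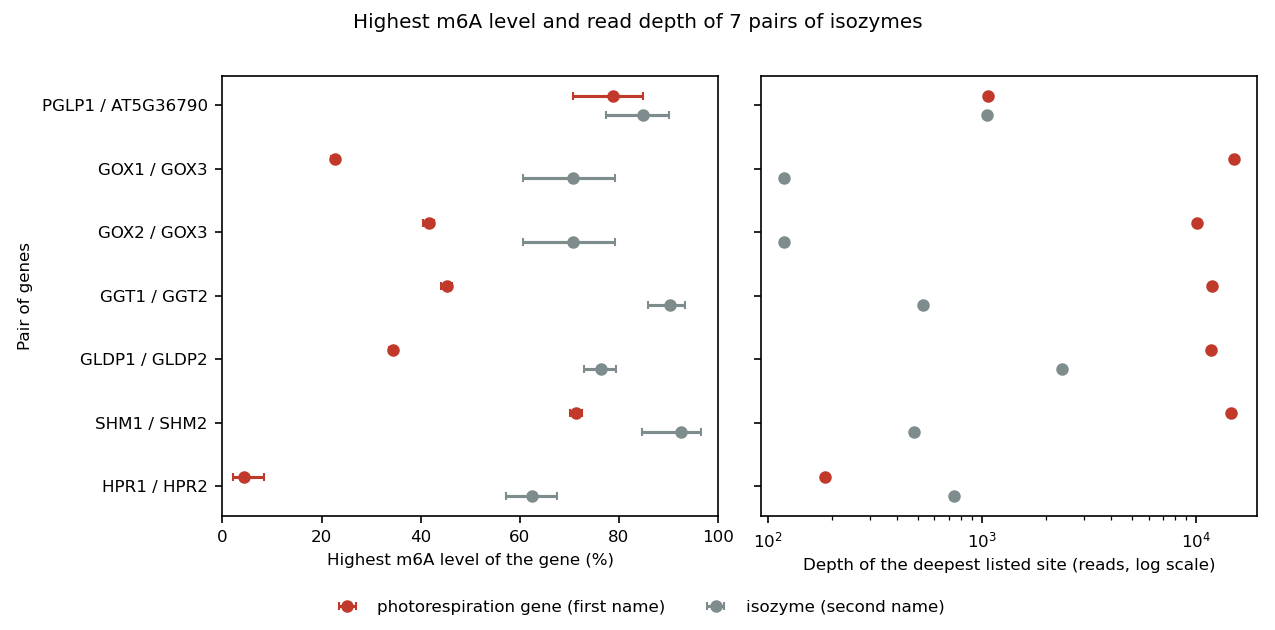
Highest m6A level of the gene in percent (left panel, with 95% Wilson intervals) and depth of its deepest listed site in reads (right panel, log scale) for 7 pairs, with the photorespiration gene in red above its isozyme in grey. Only PGLP1 and AT5G36790 overlap in both panels, at 78.7% and 84.9%, and their reads cannot be assigned to either gene with certainty. HPR1 is shown by its named site, without its deeper unnamed sites.

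Markers of green tissue were among the deepest transcripts of the table, with deepest sites of 302258 reads in RBCS1A (Rubisco small subunit), 46900 in RCA (Rubisco activase) and 44655 in LHCB1.3 (antenna protein). The root marker PYK10 was present at up to 19617 reads, as whole seedlings contain both. Levels of the 9 genes are therefore averages over whole seedlings. The parts of shoot and root cells in them, and differences between tissues, were not measured here.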

How the data were processed

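CAM-seq was applied to poly(A) RNA of 3 seedling replicates of 1 group. Per the supplementary methods, the authors trimmed reads with Cutadapt, mapped them to TAIR10 with hisat2-3n and removed reads with more than 3 unconverted adenosines, too large a share of adenosines unconverted or many mismatches; versions are not given in the sources used here. The deposited counts are raw, namely the depth and the unconverted reads of each site pooled over replicates. The deposited p-value of each site comes from the authors' binomial test. Recomputed against a background of 1% it agreed within a relative difference of 9.56e-12 over 111967 sites, and its maximum was 9.99e-04 at a lowest depth of 20 reads. The supplementary methods state a stricter threshold than the table holds, whereas the main text of the paper gives p under 0.001 for Arabidopsis, as in the table. The paper reports fewer Arabidopsis sites than the 120269 listed here.

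Levels, Wilson 95% intervals and Newcombe intervals of differences were computed in Python 3.11.15 with SciPy 1.17.1. Two-sided Fisher's exact tests used Benjamini-Hochberg adjustment with a threshold of 0.05. Regions came from RefSeq (TAIR10.1) and the transcript with the longest coding sequence, and unnamed sites were placed on a transcript that contains them. For GOX1 and GOX2, spliced transcripts were aligned with Biopython 1.88. All 9 genes were named with their highest and deepest sites, and of the other pathway genes the 5 with the deepest site. Tests were checked on simulated data. Members and gene lists were chosen with earlier results of these data known.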

Additional observations from a re-analysis of the deposited data

Results flagged for a closer look

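Sites without a gene name lay inside PGLP1 and HPR1, on the strand of the gene, and entered none of the counts per gene. PGLP1 contained 10 such sites, with a highest level of 86.9% at an AAC read 663 times. HPR1 contained 10 such sites, with a highest level of 45.7% at a GAC read 1651 times. Of the 10 in PGLP1, 9 lay in a stretch that is exonic in 2 of its 4 RefSeq transcripts and 1 in a stretch exonic in 1 of them, and their depths ran from 46 to 939 reads. Counted on the longer transcript of HPR1, all 3 RAC and all 4 YAC adenosines of the stop-codon window were listed. Why the table leaves these sites unnamed was not tested.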

How the results depend on the processing

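No replicate could be left out and no paired analysis was possible because the counts are pooled over the replicates. The mean level over the 127 sites was 14.8%, and it was 16.8% with a listing threshold of 1e-04, 31.7% with levels of at least 10%, 15.3% with sites weighted by depth, and 15.2% with the unnamed sites added. Levels of at least 10% left 49 sites, of which 16.3% were above 50%, 44.9% in RAC motifs, 98.0% in the 3' UTR and 85.7% in the stop-codon window. A window ending at 100 nt after the stop codon held 33.9% of the sites. In the other 32 of 42 alternatives for these summary values, counts stayed within 1.5 times, and shares and means within their counting error, among them 6 neighbours that differed (5 with the deepest sites, 7 with unnamed sites added) and 4 GOX pairs that differed under a Bonferroni adjustment. Of 79 alternatives for single genes, 33 moved a value. The order of the genes was not kept with the deepest sites, where SHM1 had 3.34%, against 71.3% at its highest site, and AGT1 (38.8%) stood next to GLYK. HPR1 lost its only named site at a threshold of 1e-04. Depth limits the highest sites of PGLP1 (127 reads), SHM2 (81 reads) and GOX3 (89 reads) most.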
